A study of Mus musculus with 12 samples.

Results

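The response to LPS of dendritic cell cultures grown with all-trans-retinoic acid (RA) was described gene by gene. Its members are the 2 arrays labelled RA+LPS and the 2 labelled RA, 4 of the 12 arrays of the series, chosen by their titles and compared as RA+LPS against RA with mouse strain as the pair. Every probe set of the array entered the comparison. In all groups, marrow cells of mice 6 to 8 weeks old were grown for 10 days with GM-CSF at 20 ng/ml, a growth factor that drives marrow cells towards dendritic cells and macrophages. The RA+LPS cultures held RA, labelled as 10 nmol (per ml in the treatment protocol), and LPS at 1 ug/ml, and the RA cultures held RA alone. Beside them stood Ro+LPS and Ro cultures with Ro41-5253, an antagonist of the alpha form of the retinoic acid receptor labelled as 100 nmol, and control+LPS and control cultures with no retinoid. Each of the 6 groups was measured once in BALB/c, which is replicate 1, and once in BL6, which is replicate 2. The agents were given from the start of culture and the time of exposure to LPS is not given separately in the sources used here. Whether a culture held marrow of 1 or of several animals is not given either.

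LPS is a component of the outer membrane of Gram-negative bacteria. It is handed by Cd14 to the receptor Tlr4, whose adaptors start the NF-kappaB and MAP kinase pathways on one side and the interferon pathway on the other, and dendritic cells that sense it are known to secrete cytokines, raise costimulatory molecules and move towards lymph nodes. RA is made from vitamin A by retinaldehyde dehydrogenases and acts through nuclear receptors that pair with retinoid X receptors. In the gut, dendritic cells that make RA are known for guiding lymphocytes towards the intestine and for favouring regulatory T cells.

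The deposited values are array signals on a linear scale without a unit, named as MAS5 output in the submitters' processing notes. Array medians were 23.4 and 24.2 in the RA+LPS cultures and 34.4 and 26.6 in the RA cultures (BALB/c and BL6 in this order, here and below), within a range of 21.4 to 41.8 over all 12 arrays. Signals below 41.8, the highest array median, are called background. Changes are differences of log2(signal + 16), RA+LPS minus RA, given relative to the median change of all genes (-0.18) with the standard error of the limma model. A gene rose or fell where its adjusted p was under 0.05 both at the deposited scaling and after quantile normalization, and the larger adjusted p is printed. The number of arrays limits the precision, since each strain contributes 1 array to each group. Whether the arrays come from separate animals is not in the labels beyond their strain. The p-values rest on the spread left after condition and strain over all 12 arrays. That spread mixes strain differences in response with array-to-array variation that may be technical.

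The labels call the cells dendritic cells. Cd74 (12598 and 12083 in RA+LPS cultures, against 14178 and 13661 in RA cultures) and H2-Aa (11431 and 8542 in RA+LPS cultures, against 12768 and 9163 in RA cultures), which serve antigen presentation on MHC class II, were bright in all 4 arrays. Itgax, the integrin that defines CD11c+ cells, had 1744 and 1013 in RA+LPS cultures, against 3441 and 2975 in RA cultures. Among the conventional dendritic cell markers, Flt3, Zbtb46 and Xcr1 had signals of at most 67 in any of the 4 arrays. Other members were brighter in RA cultures and fell with LPS. Mgl2 had 322 and 945 in RA+LPS cultures, against 8413 and 6433 in RA cultures. Cd24a had 2554 and 1980, against 6739 and 4082, and Naaa had 324 and 416, against 3099 and 4964. Cd209a had 18 and 19, against 589 and 257. Genes of macrophages were bright as well, with Csf1r, the receptor of their growth factor, at 6778 and 7296 in RA+LPS cultures, against 10905 and 10872 in RA cultures. Of the 17 conventional dendritic cell markers on the array 0 rose and 6 fell (35.3%), with a median relative change of -0.10. Their summed signals were 32511 and 31146 in RA+LPS cultures and 54290 and 47639 in RA cultures. The 20 macrophage and monocyte markers summed to 87370 and 99771 in RA+LPS cultures and to 114604 and 117739 in RA cultures. Of these 2 rose and 5 fell (10% and 25%), with a median of 0.03. Over all genes 3.8% rose and 9.75% fell, and among genes above background 6.1% and 16.5%. Bright members weigh most in the sums. In bulk RNA, fewer cells of a type and less RNA per cell cannot be told apart.

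Of 18194 genes 2466 changed with LPS (13.6%), 692 of them higher (3.8%) and 1774 lower (9.75%) in RA+LPS than in RA cultures. All 2466 moved the same way in both strains. These genes were called by their mean change over the same strains, which favours such agreement, so no test is drawn from that count. Over single probe sets, 4615 of 45037 passed (10.2%), 1363 higher (3.03%) and 3252 lower (7.22%). Higher genes made up 28.1% of the calls, and 19.7% at the deposited scaling alone (696 higher and 2837 lower) or 42.7% after quantile normalization alone (1322 higher and 1777 lower). Among the 10202 genes with a mean signal above background 2305 were called (22.6%), of which 622 rose (6.1%) and 1683 fell (16.5%). Relative changes of over 4-fold were seen for 298 of the risen and 487 of the fallen genes. Without strain as a block the calls were 385 higher and 836 lower, and without the RA culture of BALB/c they were 358 and 594.

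Ptgs2, cyclooxygenase 2, which opens prostaglandin synthesis, came first among the rises on the log2(signal + 16) scale: its signal was 5529 and 5612 in RA+LPS cultures, against 16.6 and 9.74 in RA cultures. The 2 groups lay over 2 orders of magnitude apart and its relative change was 7.77 ± 0.32 (adjusted p = 2.12e-06). Il12b, which encodes the p40 chain shared by interleukins 12 and 23, followed with 12094 and 6529 in RA+LPS cultures, against 22.5 and 53.1 in RA cultures (7.61 ± 0.43, adjusted p = 2.27e-05). Cfb, factor B of the alternative complement pathway, was measured above background in both groups, at 5943 and 8830 in RA+LPS cultures, against 75.2 and 85 in RA cultures, an 85.7-fold rise (6.42 ± 0.30, adjusted p = 2.97e-06). The other 9 of the 12 largest rises were Hspa1b and Hspa1a, which encode the inducible heat shock protein Hsp70, Il6, Hamp, the iron hormone hepcidin, U90926, Slfn4, Il1b, Inhba, a subunit of activin, and Cd40, with relative changes between 6.34 and 5.72. Hspa1a and Hspa1b are near-identical copies whose probe sets may share target RNA. In the RA cultures Ptgs2, Il12b, Hspa1b, Hamp, Hspa1a and U90926 averaged below background, as did 161 of the 692 risen genes, so no fold is given for them, their changes depend on the 16 added before the logarithm, and their order among the largest rises is not settled.

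**Figure D1:**
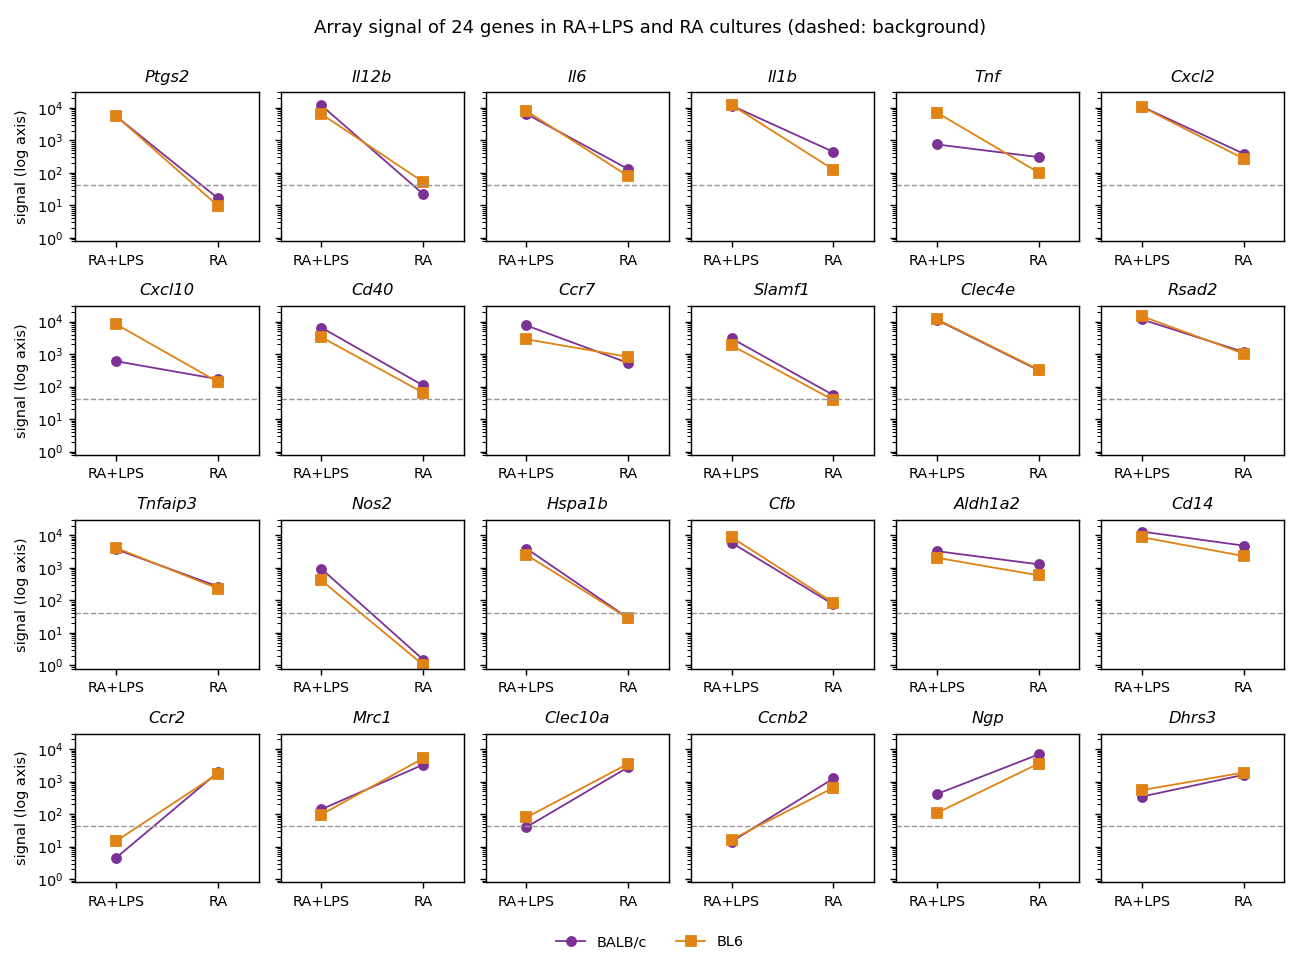
Array signal (log axis, no unit) of 24 genes in the RA+LPS culture (left) and the RA culture (right) of each panel, with a line for each strain and the background of 41.8 dashed. Ptgs2 stands at 5529 and 5612 with LPS, against 16.6 and 9.74 without it, while the BALB/c and BL6 lines part for Tnf and Cxcl10.

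Inflammatory cytokines rose in 13 of 20 genes on the array and fell in 1, with a median relative change of 2.30, where 3.8% of all genes rose and the median is 0 by construction. Il6, a cytokine of the acute phase and of T helper 17 differentiation, had 6521 and 8052 in RA+LPS cultures, against 131 and 79.8 in RA cultures, a 69.2-fold rise (6.11 ± 0.47, adjusted p = 3.34e-05). Il1b, the secreted interleukin 1, had 11856 and 12358 in RA+LPS cultures, against 444 and 128 in RA cultures (5.74 ± 0.54, adjusted p = 0.000119). In both genes every LPS array lay above every array without it. Il1a rose by 5.42 ± 0.41 and Il23a, whose product pairs with p40, by 2.36 ± 0.34. Il10, the main suppressive cytokine of these cells, was near background, at 42 and 42.1 in RA+LPS cultures, against 8.31 and 8.05 in RA cultures, and was not called (1.44 ± 0.45, adjusted p = 0.0846). Tnf, a first-wave cytokine, had 755 and 7256 in RA+LPS cultures, against 308 and 103 in RA cultures, and its rise of 3.77 ± 0.83 (adjusted p = 0.0147) was lost without either BL6 array.

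Chemokines rose in 14 of 21 genes and fell in 0 (median 2.10). Cxcl2, which attracts neutrophils, had 11019 and 10805 in RA+LPS cultures, against 392 and 275 in RA cultures, a 35.9-fold rise (5.17 ± 0.39, adjusted p = 3.34e-05). Cxcl3 rose by 5.14 ± 0.68 and Cxcl16, a ligand of Cxcr6 on T cells, by 2.42 ± 0.17. Cxcl9, an interferon-induced attractant of T cells, was at 227 and 1995 in RA+LPS cultures, against 2.8 and 1.12 in RA cultures (5.46 ± 0.75), so the groups did not overlap but the LPS arrays differed from each other. Of 14 chemokine receptors 3 rose and 1 fell (21.4% and 7.14%, where 3.8% of all genes rose and 9.75% fell). Ccr7, which guides mature dendritic cells to lymph nodes, had 7658 and 2879 in RA+LPS cultures, against 534 and 830 in RA cultures, a 7.83-fold rise (2.97 ± 0.36, adjusted p = 0.00152). Ccr2, the receptor by which monocytes leave the marrow, came first among the falls on this scale, with 4.57 and 14.9 in RA+LPS cultures, against 1946 and 1762 in RA cultures (-6.03 ± 0.41, adjusted p = 2.04e-05), though its place in that order rests on signals below background. Ccrl2, a non-signalling chemerin receptor, rose by 4.60 ± 0.23.

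The NF-kappaB list, made of subunits, inhibitors and regulators of the factor, rose in 17 of 20 genes with none lower (median 2.05), and in 16 to 17 with any 1 of the 4 arrays left out. Tnfaip3, the deubiquitinase A20 that ends NF-kappaB signals, had 3734 and 4122 in RA+LPS cultures, against 268 and 232 in RA cultures, a 16.8-fold rise (4.07 ± 0.21, adjusted p = 3.95e-06). Traf1 rose by 4.59 ± 0.28, the noncanonical subunit gene Nfkb2 by 2.82 ± 0.23 and the inhibitor Nfkbib by 2.44 ± 0.18. For each of these genes the lowest LPS array lay above the highest array without LPS. Of the windows from 250 bases before to 50 bases after the annotated start (RefSeq, build GRCm38.p6, available for 14368 of the 18194 genes), 1.56% held a kappaB motif, read as GGG, 2 bases of any kind and TTTCC, on either strand. The share was 3.3% among the 546 risen genes with a window, 1.03% among the 1456 fallen ones and 27.8% in the NF-kappaB list, where 5 of 18 windows held it. The windows of Il6, from the cytokine list, and Cxcl2, from the chemokine list, are shown. Neither is in the NF-kappaB list, and both were picked as genes with large rises that hold the motif. It lies at base -44 in Il6 and at bases -97 and -78 in Cxcl2 (first base of the motif). Capitals mark the motif, and each window runs 5′ to 3′ along the gene's strand.
Il6, chr5:30012864-30013163, plus strand: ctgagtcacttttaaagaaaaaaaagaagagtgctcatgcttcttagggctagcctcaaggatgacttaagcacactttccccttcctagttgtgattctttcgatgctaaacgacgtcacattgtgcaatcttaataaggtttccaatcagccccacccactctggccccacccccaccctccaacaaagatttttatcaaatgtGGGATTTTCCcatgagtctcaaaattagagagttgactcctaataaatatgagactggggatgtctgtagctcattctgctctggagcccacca
Cxcl2, chr5:90903649-90903948, plus strand: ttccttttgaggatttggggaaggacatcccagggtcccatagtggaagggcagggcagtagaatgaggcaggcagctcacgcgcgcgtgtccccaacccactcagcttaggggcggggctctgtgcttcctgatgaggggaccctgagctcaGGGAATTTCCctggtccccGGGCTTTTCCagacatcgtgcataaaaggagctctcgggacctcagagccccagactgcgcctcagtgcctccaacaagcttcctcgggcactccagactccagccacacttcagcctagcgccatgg

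Genes of dendritic cell maturation and costimulation rose in 18 of 21 cases and fell in 0 (median 2.38), and in 15 to 17 with any 1 array left out. Cd40, through which T cells license dendritic cells, had 6617 and 3339 in RA+LPS cultures, against 109 and 65.5 in RA cultures, a 52.9-fold rise (5.72 ± 0.26, adjusted p = 2.97e-06). Slamf1, a self-binding costimulatory receptor, had 3049 and 1861 in RA+LPS cultures, against 55 and 38.8 in RA cultures (5.44 ± 0.47, adjusted p = 6.87e-05). The immune checkpoint ligand gene Cd200 rose by 4.20 ± 0.26. The 3 members that were not called were Icosl, Tmem123 and Cd44, with relative changes of 0.26, 0.95 and -0.11. Of 11 MHC class II genes 0 rose and 1 fell (9.09%, where 9.75% of all genes fell). The fallen gene was H2-DMa, which loads peptides (-1.69 ± 0.23). Ctss, the cathepsin that trims the invariant chain, had 12860 and 13232 in RA+LPS cultures, against 12315 and 14262 in RA cultures (0.16 ± 0.18, adjusted p = 0.964). Of 16 genes of MHC class I processing 3 rose, led by the peptide transporter gene Tap1 (2.09 ± 0.26, 4.24-fold). With 1 array left out 1 to 7 rose, and the call of Tap1 was lost when a gene's probe sets were averaged.

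Interferon-stimulated genes rose in 26 of 33 cases and fell in 0, with a median relative change of 2.51. Rsad2, the antiviral enzyme viperin, had 11741 and 14759 in RA+LPS cultures, against 1167 and 1039 in RA cultures, a 13.4-fold rise (3.74 ± 0.23, adjusted p = 1.06e-05). Gbp2, a guanylate-binding GTPase, had 4778 and 10614 in RA+LPS cultures, against 561 and 1515 in RA cultures (3.10 ± 0.25, adjusted p = 0.000157), a call lost without strain as a block. The groups did not overlap in either gene, and the BL6 array was the brighter of the 2 LPS arrays in both. Slfn4 rose by 5.79 ± 0.55 and Cmpk2, a mitochondrial nucleotide kinase, by 5.22 ± 0.58. The count was 12 without the RA+LPS culture of BL6 and 12 without the RA culture of BL6, and 14 without strain as a block. The interferon-response motif, read as GAAA, 2 bases of any kind and GAAA again and searched on both strands, was held by 3.03% of all windows, by 6.23% of those of risen genes, by 2.47% of those of fallen genes and by 14 of 26 in this list (53.8%). A window with several motifs was counted once, and overlapping motifs were allowed. The windows of Ifit1 (relative change 3.92) and Rsad2, picked as list members with large rises that hold the motif, are shown. The motif is in capitals and reads along the opposite strand in both, first bases at -104 and -85 in Ifit1 and at -120 in Rsad2.
Ifit1, chr19:34640639-34640938, plus strand: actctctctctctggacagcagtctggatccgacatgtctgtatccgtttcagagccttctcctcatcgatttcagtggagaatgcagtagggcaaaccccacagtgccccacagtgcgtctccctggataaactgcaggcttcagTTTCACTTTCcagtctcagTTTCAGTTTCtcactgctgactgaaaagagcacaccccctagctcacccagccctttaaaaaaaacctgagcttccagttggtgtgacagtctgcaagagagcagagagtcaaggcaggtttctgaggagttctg
Rsad2, chr12:26456403-26456702, minus strand: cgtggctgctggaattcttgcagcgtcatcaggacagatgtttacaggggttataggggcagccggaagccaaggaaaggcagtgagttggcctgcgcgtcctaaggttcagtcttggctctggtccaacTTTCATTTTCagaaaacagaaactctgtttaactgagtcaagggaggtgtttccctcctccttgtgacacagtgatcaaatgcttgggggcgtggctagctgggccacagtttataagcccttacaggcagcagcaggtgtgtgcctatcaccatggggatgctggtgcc

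Of 20 genes of LPS recognition and Toll-like receptor signalling 3 rose and 0 fell (median 0.10). Cd14, which hands LPS to the receptor, had 13129 and 8835 in RA+LPS cultures, against 4850 and 2315 in RA cultures, a 3.63-fold rise (1.86 ± 0.27, adjusted p = 0.00261) that was not called without strain as a block. Tlr4 itself had 269 and 307 in RA+LPS cultures, against 547 and 348 in RA cultures and was not called (-0.40 ± 0.46, adjusted p = 0.934). The groups did not overlap for Cd14, and for Tlr4 the 2 LPS arrays lay below both others. Traf6 rose by 2.27 ± 0.47 and Irak2 by 0.99 ± 0.22, calls that were lost without either BALB/c array for Traf6 and without any 1 of the 4 arrays for Irak2. The list had 1 to 2 rises with 1 array left out. C-type lectin receptors split, with 3 of 14 higher and 7 lower (median -1.79). Clec4e, the receptor Mincle for mycobacterial glycolipids, had 11480 and 11986 in RA+LPS cultures, against 321 and 335 in RA cultures, a 38.7-fold rise (5.27 ± 0.26, adjusted p = 3.43e-06). Clec10a, a galactose-binding lectin, had 39.9 and 79.1 in RA+LPS cultures, against 2794 and 3579 in RA cultures (a change of -5.27 ± 0.27, adjusted p = 3.43e-06), and the mannose receptor gene Mrc1 had 140 and 96.7 in RA+LPS cultures, against 3328 and 5231 in RA cultures (-4.80 ± 0.56, adjusted p = 0.000848). Cd209a and Clec4b1 fell with relative changes of -3.38 ± 0.44 and -4.71 ± 0.40.

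Genes of nitric oxide, arginine and itaconate metabolism rose in 7 of 18 cases and fell in 1 (median 0.97), and in 7 with any 1 array left out. Nos2, inducible nitric oxide synthase, had 942 and 413 in RA+LPS cultures, against 1.51 and 1.04 in RA cultures (5.39 ± 0.39, adjusted p = 2.72e-05). Acod1, which makes itaconate, had 9084 and 11348 in RA+LPS cultures, against 456 and 97.7 in RA cultures, a 49.7-fold rise (5.64 ± 0.61, adjusted p = 0.000256). Slc7a2, an arginine transporter, rose by 2.90 ± 0.21 and Sod2, mitochondrial superoxide dismutase, by 2.26 ± 0.23. Arg1, the arginase that competes with Nos2 for arginine, had 4713 and 4088 in RA+LPS cultures, against 1882 and 4713 in RA cultures and was not called (0.74 ± 0.48, adjusted p = 0.519). Its groups overlapped, since the RA culture of BL6 was as bright as the LPS cultures. Among prostaglandin and leukotriene genes 2 of 17 rose, Ptgs2 and Ptges, and 7 fell (median -0.63). Ptges, the synthase of prostaglandin E2, had 2461 and 3187 in RA+LPS cultures, against 67.4 and 83.4 in RA cultures, a 35-fold rise (5.13 ± 0.31, adjusted p = 8.79e-06). Ptgis, prostacyclin synthase, had 25.4 and 18.3 in RA+LPS cultures, against 523 and 476 in RA cultures (-3.59 ± 0.29, adjusted p = 0.000123), and Tbxas1, thromboxane synthase, fell with a change of -2.21 ± 0.24 (4.62-fold lower).

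Feedback and anti-inflammatory genes rose in 7 of 22 cases and fell in 1 (median 0.59). Beside Ptgs2, Ptges and Cd200, the cytokine signalling inhibitor Socs3 had 4504 and 5378 in RA+LPS cultures, against 419 and 322 in RA cultures, a 14.6-fold rise (3.87 ± 0.31, adjusted p = 4.59e-05). Stress genes rose in 9 of 23 cases and fell in 1 (median 0.75), among them Ppp1r15a (2.65 ± 0.20), which restarts translation after stress, and Gadd45b (3.99 ± 0.28). Hspa1b had 3947 and 2510 in RA+LPS cultures, against 28.4 and 28 in RA cultures. Of 23 immediate early genes and MAP kinase phosphatases 4 rose and 5 fell (17.4% and 21.7%, median -0.17). Over all genes 3.8% rose and 9.75% fell, and among genes above background 6.1% and 16.5%. Junb rose by 2.08 ± 0.27 and Dusp1, which inactivates p38 and other MAP kinases, by 2.13 ± 0.31, while Myc, which drives growth, had 142 and 33.9 in RA+LPS cultures, against 1162 and 352 in RA cultures (-2.71 ± 0.42, adjusted p = 0.00161). With 1 array left out the list had 3 to 5 rises and 1 to 6 falls, and without strain as a block it had 2 falls and Myc was not called.

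Genes of DNA replication and mitosis fell in 30 of 35 cases and rose in 0, with a median relative change of -2.51. Ccnb2, a mitotic cyclin, had 14.3 and 16.6 in RA+LPS cultures, against 1250 and 650 in RA cultures (-4.69 ± 0.37, adjusted p = 4.22e-05). Ube2c, the conjugating enzyme of the anaphase-promoting complex, had 49.7 and 20.5 in RA+LPS cultures, against 1946 and 1144 in RA cultures (-4.77 ± 0.56, adjusted p = 0.000726), and Cdc20, an activator of that complex, had 36.5 and 17.3 in RA+LPS cultures, against 1755 and 689 in RA cultures (-4.56 ± 0.32). The groups were separated in all 3 genes, and the RA culture of BALB/c was brighter than that of BL6. Tk1, thymidine kinase, and Ccna2, the cyclin of replication, fell with changes of -4.49 ± 0.33 and -3.58 ± 0.38. The number of fallen members was 19 without the RA culture of BALB/c. In the promoter windows the motif TTTGAA of cell cycle genes, searched on both strands, was held by 13.3% of all windows, by 12.5% of those of risen genes, by 15.5% of those of fallen genes and by 12 of 28 in this list (42.9%). A motif of 6 letters is frequent in any sequence. A heat shock motif, read as GAA, 2 bases of any kind, TTC, 2 bases of any kind and GAA and searched on both strands, was held by 0.452% of all windows, by 0.366% of those of risen genes and by 0.549% of those of fallen genes. The windows of Ube2c, with the motif on the opposite strand at base -29, and of Ccnb2, with motifs at bases -167 and 5, are shown with the motif in capitals. Both were picked as list members with large falls that hold the motif.
Ube2c, chr2:164769679-164769978, plus strand: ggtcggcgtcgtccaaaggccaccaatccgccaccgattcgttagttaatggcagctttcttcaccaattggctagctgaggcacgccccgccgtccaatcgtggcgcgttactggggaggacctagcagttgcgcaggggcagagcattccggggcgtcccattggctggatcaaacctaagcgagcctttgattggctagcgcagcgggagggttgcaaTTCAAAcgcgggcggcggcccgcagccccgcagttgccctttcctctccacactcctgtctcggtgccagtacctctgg
Ccnb2, chr9:70421505-70421804, minus strand: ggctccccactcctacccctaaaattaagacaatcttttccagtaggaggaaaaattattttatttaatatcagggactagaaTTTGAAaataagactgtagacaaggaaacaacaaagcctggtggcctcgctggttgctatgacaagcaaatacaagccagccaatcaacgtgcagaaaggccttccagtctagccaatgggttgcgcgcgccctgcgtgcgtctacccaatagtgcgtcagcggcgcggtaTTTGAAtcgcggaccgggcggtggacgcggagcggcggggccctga

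**Figure D2:**
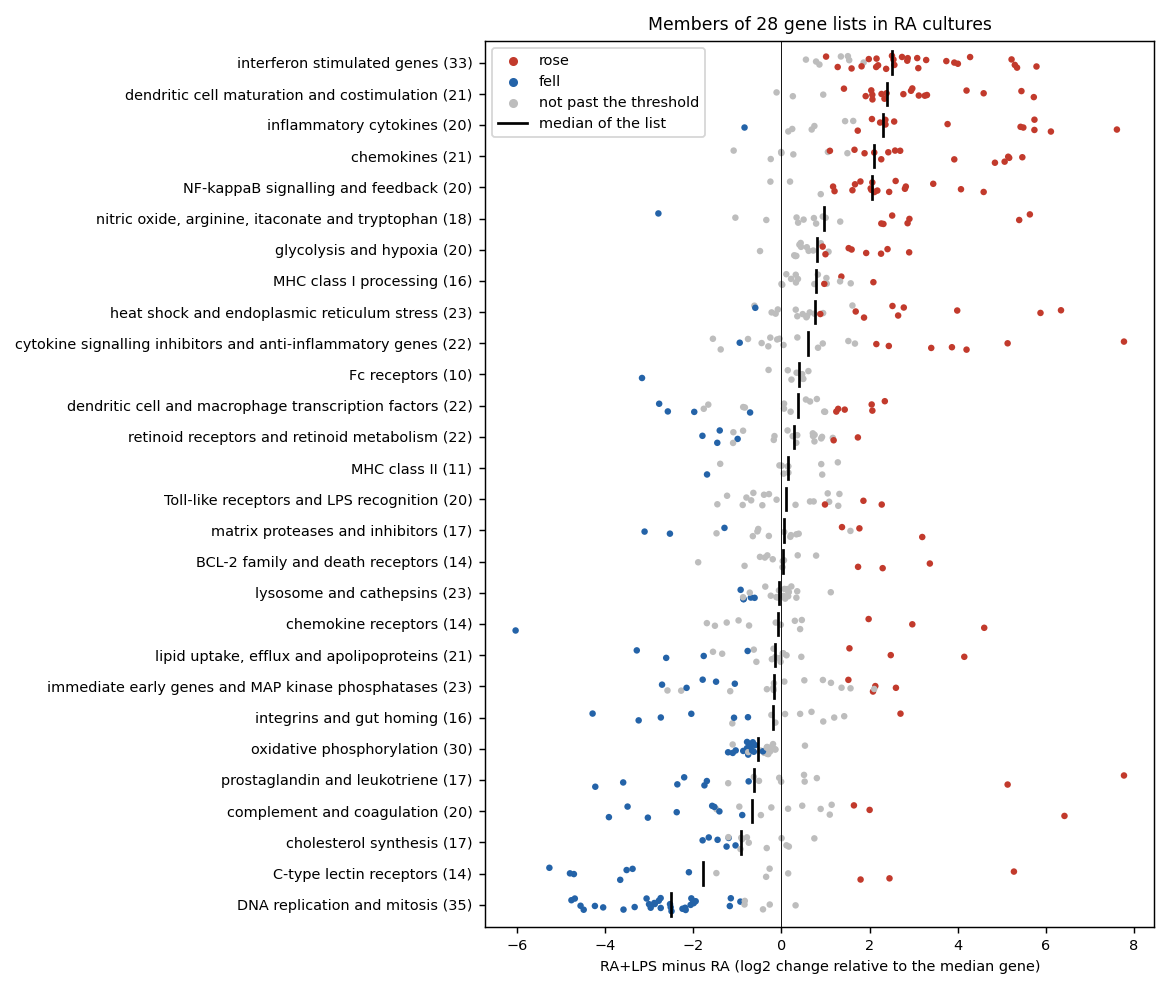
Relative log2 change (RA+LPS minus RA, horizontal axis) of each member of 28 gene lists, with the number of members on the array in parentheses, red for genes that rose, blue for genes that fell, grey for genes past no threshold, and a bar at the list's median. Interferon-stimulated genes have a median of 2.51 and genes of DNA replication and mitosis one of -2.51, against 0 for all genes.

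Of 22 genes of retinoid receptors and retinoid metabolism, 7 were at background in both groups, 2 rose and 4 fell (median 0.29). These are 9.09% and 18.2%, where 3.8% of all genes rose and 9.75% fell. Among genes above background 6.1% rose and 16.5% fell. Aldh1a2, the retinaldehyde dehydrogenase by which dendritic cells make RA, had 3281 and 2057 in RA+LPS cultures, against 1291 and 591 in RA cultures, a 3.32-fold rise (1.73 ± 0.24, adjusted p = 0.0018). Dhrs3, which returns retinaldehyde to retinol, had 346 and 548 in RA+LPS cultures, against 1622 and 1907 in RA cultures, 3.47-fold lower (-1.79 ± 0.28, adjusted p = 0.00374). The groups did not overlap in either gene. Tgm2, a transglutaminase that is a classic target of RA, had 9085 and 8373 in RA+LPS cultures, against 5746 and 3278 in RA cultures (1.18 ± 0.26, adjusted p = 0.0242). The receptor gene Rarb had 20.1 and 12.5 in RA+LPS cultures, against 122 and 50.5 in RA cultures (-1.40 ± 0.36, adjusted p = 0.0162), and Rara had 27.8 and 16.7 in RA+LPS cultures, against 195 and 49.5 in RA cultures (-1.46 ± 0.40, adjusted p = 0.0493), both at background with LPS. Those 2 calls and that of Tgm2 were each lost without at least 3 of the 4 arrays taken singly, and that of Dhrs3 without the RA culture of BL6. The call of Aldh1a2 was lost without strain as a block, which left 0 rises in the list. Cyp26a1, which breaks RA down, had 24.7 and 21.8 in RA+LPS cultures, against 140 and 42.1 in RA cultures and was not called (-1.10 ± 0.43, adjusted p = 0.138), nor were Cyp26b1 (0.90 ± 0.43), Rarg (0.75 ± 0.47), Rxra (-0.87 ± 0.36) and Rdh10 (-0.16 ± 0.42). With 1 array left out the list had 1 rise and 1 to 2 falls.

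Of 16 integrins and gut homing genes 1 rose and 6 fell (6.25% and 37.5%, median -0.18). Over all genes 3.8% rose and 9.75% fell, and among genes above background 6.1% and 16.5%. Itga5, the alpha chain of the fibronectin receptor, had 393 and 477 in RA+LPS cultures, against 75.1 and 51.2 in RA cultures, a 6.5-fold rise (2.70 ± 0.35, adjusted p = 0.000902). Itgb7, which forms the gut homing receptor with Itga4 and the epithelial one with Itgae, had 9.8 and 43 in RA+LPS cultures, against 1800 and 393 in RA cultures (-4.29 ± 0.79, adjusted p = 0.00758), and Itgae, the CD103 chain of intestinal dendritic cells, had 19 and 13 in RA+LPS cultures, against 72.5 and 235 in RA cultures (-2.05 ± 0.47, adjusted p = 0.0282). Both were at background on average with LPS, and each call was lost with some single arrays left out. Itgb8, which activates TGF-beta, and Ccr9, the gut homing chemokine receptor, averaged below background in both groups and were not called. Itgb5 and Itga6 fell with changes of -2.74 ± 0.32 and -3.24 ± 0.50, the call of Itga6 being lost without strain as a block. The list had 3 falls without the RA+LPS culture of BALB/c and 3 without the RA culture of BL6.

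Of 20 glycolysis and hypoxia genes 8 rose and 0 fell (median 0.81), with 2 to 6 rises when 1 array was left out. Slc2a1, the main glucose transporter, had 7320 and 2635 in RA+LPS cultures, against 1316 and 651 in RA cultures, a 5.3-fold rise (2.41 ± 0.30, adjusted p = 0.000828), and Pfkfb3, an activator of glycolysis, rose by 2.26 ± 0.34. Of 30 genes of oxidative phosphorylation 14 fell and 0 rose (median -0.53), with 1 fall left without the RA culture of BALB/c and 2 without strain as a block. Ndufb5, a subunit of respiratory complex I, had 1162 and 1279 in RA+LPS cultures, against 3196 and 2807 in RA cultures, 2.15-fold lower (-1.11 ± 0.20, adjusted p = 0.00178). Cholesterol synthesis fell in 6 of 17 genes (median -0.91), but in 0 without the RA culture of BL6 and in 0 without strain as a block. Its leading member Dhcr7, which makes cholesterol in the last step, had 115 and 74.7 in RA+LPS cultures, against 445 and 379 in RA cultures (-1.79 ± 0.29, adjusted p = 0.00808). Lipid genes rose in 3 and fell in 4 of 21 cases (14.3% and 19.0%, median -0.14). Among genes above background 6.1% rose and 16.5% fell, so the share of falls lay near that of such genes. Fasn, fatty acid synthase, had 77.7 and 128 in RA+LPS cultures, against 1503 and 1064 in RA cultures, 9.74-fold lower (-3.28 ± 0.38). Pparg fell with a change of -2.62 ± 0.31, and the scavenger receptor Marco rose by 4.15 ± 0.62. With 1 array left out that list had 1 to 2 rises and 2 to 4 falls, and without strain as a block it had 1 rise and Marco was not called. Of 23 lysosomal genes 5 fell (21.7%, where 9.75% of all genes and 16.5% of genes above background fell) and 0 rose, with a list median of -0.06 and changes of -0.93 for Lipa, -0.86 for Asah1, -0.86 for Lgmn, -0.69 for Hexa and -0.61 for Tpp1, and 1 to 3 falls were left with 1 array removed.

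Complement and coagulation genes rose in 3 of 20 cases and fell in 8 (15% and 40%, median -0.68). Over all genes 3.8% rose and 9.75% fell, and among genes above background 6.1% and 16.5%. Beside Cfb, the anticoagulant Pros1 had 18.3 and 22 in RA+LPS cultures, against 438 and 451 in RA cultures (-3.49 ± 0.28, adjusted p = 3.86e-05) and Gas6, which bridges dying cells to their receptors, had 32.8 and 45.1 in RA+LPS cultures, against 610 and 1375 in RA cultures (-3.92 ± 0.44, adjusted p = 0.000854). Of 17 matrix proteases and inhibitors 3 rose and 3 fell (17.6% each). Timp1, a protease inhibitor, rose by 3.19 ± 0.49, and fibronectin, Fn1, had 1146 and 260 in RA+LPS cultures, against 6701 and 4519 in RA cultures (-3.11 ± 0.42, adjusted p = 0.000706). Transcription factors of the lineage rose in 6 and fell in 4 of 22 cases (27.3% and 18.2%). For the matrix and the transcription factor list the share of falls lay near that of genes above background. Batf, a factor of the AP-1 family, rose by 2.05 ± 0.26 and Cebpb, a factor of inflammatory genes, by 1.24 ± 0.19, while its relative Cebpd fell with a change of -2.58 ± 0.33. Of 14 genes of cell death 3 rose, among them the inflammatory caspase Casp4 (3.37 ± 0.30, 10.3-fold), the death receptor Fas (2.30 ± 0.28) and Casp1 (1.74 ± 0.34). The call of Casp1 was lost without the RA+LPS culture of BALB/c and without the RA culture of BL6. Of 10 Fc receptor genes 0 rose and 1 fell (10%, where 9.75% of all genes fell). It was Fcgrt, the receptor that recycles IgG, with 292 and 206 in RA+LPS cultures, against 3153 and 2208 in RA cultures (-3.16 ± 0.20). With 1 array removed, the complement list had 1 to 3 rises and 3 to 7 falls, the matrix list 1 rise and 2 to 3 falls, and the transcription factor list 3 to 6 rises and 1 to 7 falls.

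Markers of other cell types were counted as well, and their counts stand against 3.8% of all genes that rose and 9.75% that fell. Of 17 granulocyte markers 2 rose and 8 fell (median -2.16), with summed signals of 21354 and 16657 in RA+LPS cultures, against 77266 and 36958 in RA cultures. Ngp, a granule protein of immature neutrophils, had 413 and 108 in RA+LPS cultures, against 6878 and 3584 in RA cultures (-4.25 ± 0.81, adjusted p = 0.00678), and S100a8 had 1262 and 577 in RA+LPS cultures, against 13426 and 8812 in RA cultures (-3.47 ± 0.70, adjusted p = 0.00847). The RA culture of BALB/c was the brightest of the 4 in both, and without it 1 fall was left in the list and both genes lost their call. Of 11 B cell markers 1 rose and 1 fell (9.09% each). Blnk, an adaptor of B cell receptor signals, had 4390 and 3869 in RA+LPS cultures, against 377 and 1233 in RA cultures, a 6.69-fold rise (2.74 ± 0.50, adjusted p = 0.011) that was lost without either BALB/c array. Ighm, the heavy chain of IgM, had 32.4 and 12.5 in RA+LPS cultures, against 1348 and 1634 in RA cultures (-5.16 ± 0.45, adjusted p = 0.000369). At background in both groups were 6 of the 11 B cell markers, among them Cd79a, Ms4a1 and Pax5, which were so in all 4 arrays. The remaining members besides Blnk and Ighm were not at background in both groups and were not called. Of 12 markers of T and NK cells 11 were at background in both groups. The exception, Il7r, rose by 1.82 ± 0.21. Of 13 mast cell, basophil and eosinophil markers 9 were at background in both groups and Siglecf, a lectin shared by eosinophils and some macrophages, fell with a change of -3.34 ± 0.50. Erythroid and platelet markers gave 0 calls among 9, and the 14 stromal and endothelial ones, 7 at background, summed to 1560 and 1039 in RA+LPS cultures and 821 and 377 in RA cultures, with Dcn and Kdr called higher, Kdr only with all 4 arrays. Of 9 plasmacytoid dendritic cell markers 1 rose, Bst2, which is also interferon-stimulated, and 1 fell, Klk1b27, a call lost in 3 of the 4 removals of 1 array. The part of other cell types in the changes above was not tested.

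The 12 largest falls on this scale joined several of these groups. After Ccr2 came Slco2b1, an organic anion transporter, with 15.7 and 0.87 in RA+LPS cultures, against 1687 and 1140 in RA cultures (-5.74 ± 0.60, adjusted p = 0.000157), and Clec10a. Ighm, Slc9a9, Mrc1, Ube2c, Clec4b1, Ccnb2, Cdc20, Rnase6 and Tk1 had changes between -5.16 and -4.49. With LPS, 475 of the 1774 fallen genes averaged below background, where the size of a fall, and so its rank, depends on the 16 added before the logarithm.

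The 2 strains were then set side by side. Across all 18194 genes the changes in BALB/c and in BL6 correlated with Pearson r = 0.703 and Spearman rho = 0.589, a description across genes measured on the same 4 arrays. Of the 2466 called genes, 82 differed by more than 2 between the strains on the log2 scale. Tnf, Cxcl10 and Ifit1bl1 were brighter in BL6 with LPS: Cxcl10, an interferon-induced attractant of T cells, had 607 and 8313 in RA+LPS cultures, against 171 and 139 in RA cultures (3.92 ± 0.87, adjusted p = 0.015), and Ifit1bl1 had 619 and 10672 in RA+LPS cultures, against 127 and 140 in RA cultures. Cxcl1, which attracts neutrophils, went the other way, with 6240 and 197 in RA+LPS cultures, against 46.5 and 8.5 in RA cultures (5.06 ± 0.90, adjusted p = 0.00487), as did Grasp and the gamma-chain segment Trgv4, the last through the RA cultures (2296 and 122). Each of these 6 calls was lost when at least 1 of the 4 arrays was left out. Among genes without a call, Ptx3, a soluble pattern receptor, had 5.32 and 3911 in RA+LPS cultures, against 8.63 and 57 in RA cultures. Its changes were 0.11 in BALB/c and 5.83 in BL6. Socs1, an inhibitor of cytokine signals, changed by -0.63 and 4.01, Adgb by -0.04 and 4.45, Ch25h by -0.62 and 3.31 and Gpr84 by -0.38 and 3.43 in BALB/c and BL6. Dusp6, a phosphatase of ERK kinases, changed by -4.60 in BALB/c and -0.53 in BL6.

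**Figure D3:**
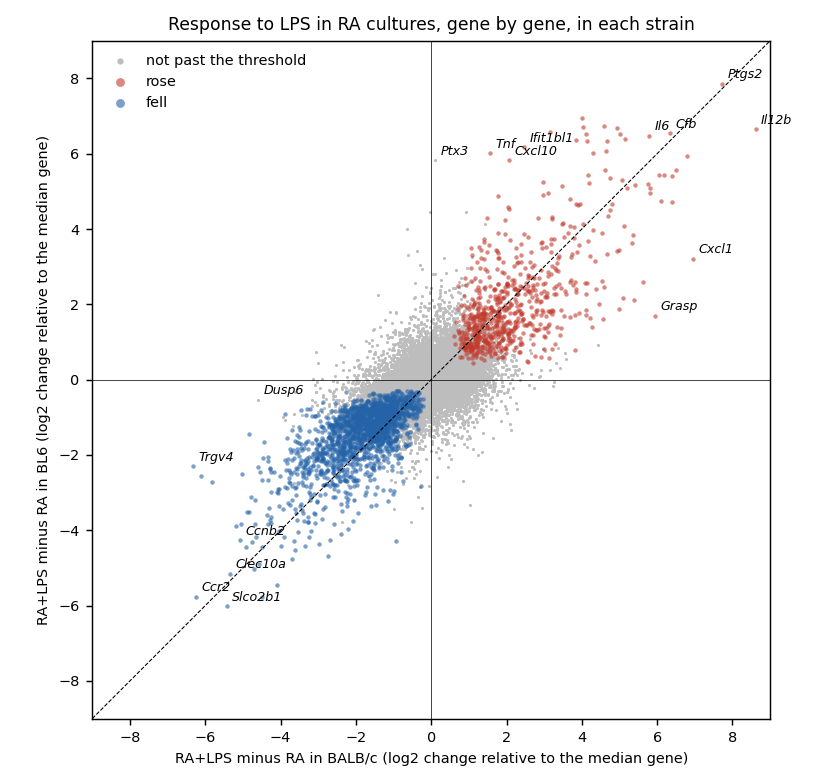
Log2 change (RA+LPS minus RA, relative to the median gene) in BALB/c on the horizontal axis and in BL6 on the vertical axis, 1 point for each of 18194 genes, red for the 692 that rose, blue for the 1774 that fell and grey for the rest. Points follow the dashed line of equal change (r = 0.703), and Tnf, Cxcl10 and Ptx3 lie above it and Cxcl1 and Grasp below it.

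By list, interferon-stimulated genes had a median change of 1.42 in BALB/c and 3.13 in BL6, and 31 of 33 changed more upwards in BL6. Over all genes the same held for 9569 of 18194. In cultures without retinoid the list's medians were 2.18 in BALB/c and 3.21 in BL6, and with Ro they were 1.68 and 2.74, on arrays not used for the RA response. Genes of cholesterol synthesis had a median of -0.61 in BALB/c and -1.41 in BL6, with a lower change in BL6 for 17 of 17 genes. Their medians were -0.31 and -0.84 without retinoid and -0.40 and -0.89 with Ro. Genes of DNA replication and mitosis had a median of -3.02 in BALB/c and -2.22 in BL6. With 1 array for each strain and condition the difference between strains was not tested, and any batch shared by arrays of 1 replicate number and the strain itself cannot be told apart.

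**Figure D4:**
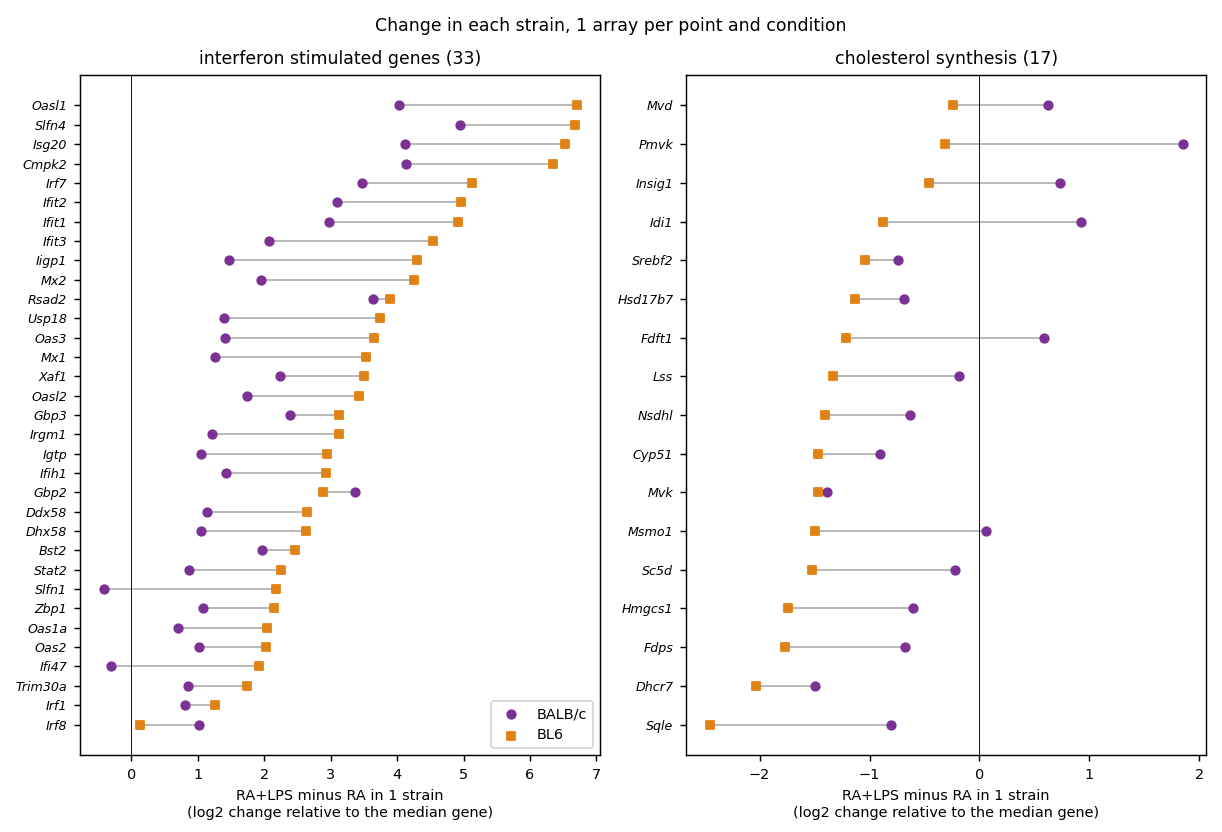
Log2 change (RA+LPS minus RA, relative to the median gene) in BALB/c (circles) and BL6 (squares) for each gene of the interferon-stimulated list (left) and the cholesterol synthesis list (right), ordered by the change in BL6. The square lies to the right of the circle for 31 of 33 interferon-stimulated genes and to its left for 17 of 17 cholesterol genes.

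Whether RA altered the response was asked by the difference between the change in RA cultures and that without retinoid, which share no array. No gene of 18194 passed the threshold (0%), with limma at either scaling. An unadjusted p under 0.05 at both was held by 888 genes, fewer than a share of 0.05 of all genes. The smallest adjusted p was 0.854. Across genes the 2 responses correlated with r = 0.858, as a description. Of the 692 genes that rose in RA cultures 681 had a positive change without retinoid, and of the 1774 that fell 1746 had a negative one, with median changes of 1.80 and 1.82 for the risen genes and -1.52 and -1.52 for the fallen genes in RA cultures and without retinoid. These genes were chosen by their change in RA cultures, so no test is drawn from those counts and medians. Among the 5 genes of smallest p in each direction, Arg1 had 4713 and 4088 in RA+LPS and 1882 and 4713 in RA cultures, against 8715 and 3489 in control+LPS and 267 and 124 in control cultures, a change of 0.74 with RA and of 5.07 without retinoid. The control cultures without LPS were the low ones. The difference of the changes was -4.24 ± 0.68 and missed the threshold. Osm, oncostatin M, changed by 0.69 and 3.0, Hbegf, a ligand of the epidermal growth factor receptor, by 1.51 and 3.84, G530011O06Rik by 3.33 and 5.32 and Rtn2, near background, by 0.07 and 1.29, in RA cultures and without retinoid. In the other direction Cfb changed by 6.42 and 4.11, Nr4a3, a nuclear receptor induced at once by many stimuli, by 2.15 and 0.07, P2ry10 by 0.44 and -1.63, Trim36 by 0.51 and -1.35 and L1cam by -0.87 and -2.50.

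Against the response in Ro cultures, 17 of 18194 genes differed (0.0934%), 12 with a higher change in RA cultures (0.066%) and 5 with a lower one (0.0275%). At an unadjusted p under 0.05 at both scalings there were 1597, more than a share of 0.05 of all genes. Over probe sets 29 of 45037 differed (0.0644%), 21 higher (0.0466%) and 8 lower (0.0178%). Most of these calls were lost when any 1 of the arrays compared was left out. All or nearly all were lost without the RA culture of either strain, or without the Ro or the Ro+LPS culture of BALB/c. The smallest p was that of Apoc2, an apolipoprotein that activates lipoprotein lipase. It had 916 and 1631 in RA+LPS and 4346 and 5194 in RA cultures, against 5545 and 3413 in Ro+LPS and 195 and 299 in Ro cultures, and the changes were of opposite sign in both strains (difference -6.03 ± 0.46, adjusted p = 0.00568). Pdgfc, a platelet-derived growth factor, had 45.6 and 86.9 in RA+LPS and 830 and 1056 in RA cultures, against 267 and 292 in Ro+LPS and 73 and 169 in Ro cultures (difference -4.78 ± 0.43, adjusted p = 0.00672). For Apoc2 the Ro cultures were the dimmest of the 4 groups, and for Pdgfc the RA cultures were the brightest. C1qa, which encodes a chain of the complement component C1q, had 5435 and 6944 in RA+LPS and 13117 and 12715 in RA cultures, against 289 and 472 in Ro+LPS and 10869 and 10020 in Ro cultures (difference 3.69 ± 0.38, adjusted p = 0.012). Hspa1b had 3947 and 2510 in RA+LPS and 28.4 and 28 in RA cultures, against 142 and 216 in Ro+LPS and 52.5 and 34.2 in Ro cultures (difference 4.45 ± 0.47, adjusted p = 0.0127). For C1qa the Ro+LPS cultures were the dimmest, and for Hspa1b the RA+LPS cultures were the brightest of the 4 groups while the control+LPS cultures, at 4337 and 5449, were as bright as or brighter than the RA+LPS ones. Pdpn, the membrane protein podoplanin, was brighter with LPS in RA cultures (2526 and 2407 in RA+LPS and 356 and 335 in RA) and did not separate by LPS to that extent in Ro cultures (796 and 924 in Ro+LPS and 1091 and 929 in Ro). The risen genes had a median change of 1.80 in RA cultures and 1.15 in Ro cultures, and the fallen genes of -1.52 and -1.20, with 654 of 692 and 1685 of 1774 of the same sign in Ro cultures. Since these genes were chosen by their change in RA cultures, no test is drawn from those medians.

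**Figure D5:**
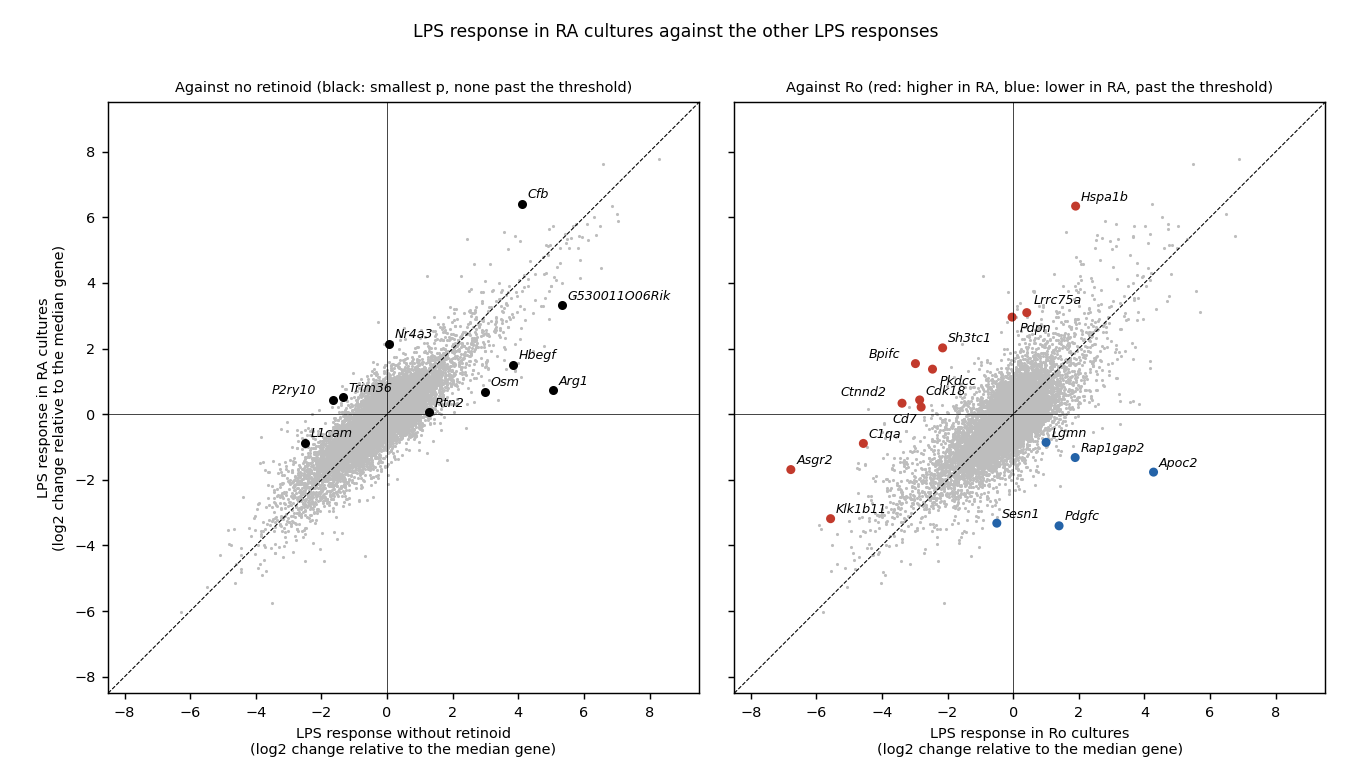
Log2 change with LPS in RA cultures (vertical axis) against that without retinoid (left) and that in Ro cultures (right), each relative to its median gene, 1 point per gene with the dashed line of equal change. Black points on the left are the 5 genes of smallest p in each direction, all short of the threshold (smallest adjusted p 0.854), and coloured points on the right are the 17 genes past it, 12 red with a higher and 5 blue with a lower change in RA cultures.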

How the data were processed

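Total RNA of 12 cultures was measured as biotin-labelled cRNA on 1-colour arrays, 1 array per strain and group. As deposited, each probe set has 1 linear intensity, and the submitters' processing notes name MAS5 as the tool. The version, the target value and any later step are not given in the sources used here, and scan or hybridisation batches are not given either. All 12 sample columns were used.

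Of 45101 probe sets 64 controls were removed. The other 45037 were analysed as log2(intensity + 16), at the deposited scaling and after quantile normalization, with limma 3.58.1 in R 4.3.3: 6 conditions plus strain as a block over 12 arrays, eBayes with an intensity trend, Benjamini-Hochberg adjustment over the whole table. Both fits had to pass 0.05 with the same sign. Strain is the pair: the labels give replicate 1 as BALB/c and 2 as BL6, and same-numbered arrays deviated together in all 15 pairs of conditions (r of 0.259 to 0.613). The block moved the calls by over 1.5 times, as printed beside the counts. Platform annotation gave 34945 probe sets 1 gene, 932 several and 9160 none. Each of 18194 genes was read from its probe set of highest mean signal. Folds were left out where a group averaged below background. Tables were built in Python 3.11.15 (pandas 2.3.3, with numpy 2.4.6) and plotted in matplotlib 3.10.9. The fit was tested on simulated data. Promoter windows came from RefSeq (GRCm38.p6), matched by gene ID.

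The members and the 37 gene lists (643 genes on the array) were chosen with earlier results of these data known. Named genes are the 12 largest rises and falls, the up to 4 called members of smallest p in each list (else up to 2 of highest signal), the called genes of each difference (else 5 of smallest p in each direction), a set list of retinoid and LPS genes, and the genes that differed most between strains. Other named genes, among them Itgax, Flt3, Zbtb46, Xcr1, Csf1r, Ifit1, Tpp1, Icosl, Tmem123 and Cd44, were chosen after their values were seen.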

Additional observations from a re-analysis of the deposited data

Results flagged for a closer look

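The response to LPS in RA cultures differed from that in Ro cultures for 17 genes in the test of the difference itself (limma, adjusted p under 0.05 at both scalings), and the values are differences of log2 changes, RA minus Ro. Genes with a lower change in RA cultures were Apoc2 (-6.03), Pdgfc (-4.78), Rap1gap2 (-3.19), Sesn1 (-2.81) and Lgmn (-1.85). Genes with a higher change in RA cultures were Asgr2 (5.1), Bpifc (4.54), Hspa1b (4.45), Sh3tc1 (4.19), Pkdcc (3.85), Ctnnd2 (3.74), C1qa (3.69), Cdk18 (3.3), Cd7 (3.04), Pdpn (3.01), Lrrc75a (2.7) and Klk1b11 (2.4). Ctnnd2 and Cd7 were near background in 3 of the 4 groups: Ctnnd2 had 10.2 and 11 in RA+LPS and 6.17 and 9.75 in RA cultures, against 2.74 and 14.2 in Ro+LPS and 265 and 273 in Ro cultures, and Cd7 had 5.52 and 4.97 in RA+LPS and 5.41 and 3.99 in RA cultures, against 3.99 and 5.1 in Ro+LPS and 137 and 161 in Ro cultures. Both were above background only in the Ro cultures without LPS. Lrrc75a, in turn, had 935 and 677 in RA+LPS and 112 and 74.3 in RA cultures, against 122 and 126 in Ro+LPS and 107 and 101 in Ro cultures, with the RA+LPS cultures the brightest of these 4 groups. The cause of these differences was not tested.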

How the results depend on the processing

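The response in RA cultures gave 692 higher and 1774 lower genes. At the deposited scaling alone 2837 genes were lower, and under quantile normalization alone 1322 were higher. Without the replicate block, which treats the 2 strains as unpaired, the calls were 385 higher and 836 lower, all among the paired calls. With only the arrays of the comparison they were 430 and 987. Leaving out 1 array gave 358 to 623 higher and 594 to 1791 lower genes, the lowest of both without the RA culture of BALB/c. No named gene that was called changed sign under the alternatives run in which it was kept. For named genes without a call, signs were compared only where an alternative called them, and other genes were not checked. The difference from the response without retinoid had 0 genes under each alternative. The difference from the Ro response, 12 higher and 5 lower, was 31 and 13 under quantile normalization alone, 6 higher with a pseudocount of 1, 22 and 10 with one of 64, 40 and 18 after a filter on dim probe sets, 6 and 3 without the intensity trend, 3 and 1 without the replicate block and 4 and 2 with only the arrays compared. With 1 array left out it was 0 to 15 higher and 0 to 4 lower. The causes were not tested. Where an array was left out, the lone sample of its group was assumed to vary like the other groups. With 2 arrays a group, signals below 41.8 carry little order.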
